A study of Mus musculus with 4 samples.

Results

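The 10 genes described here are *Dnmt1*, *Dnmt3a*, *Dnmt3b*, *Dnmt3l*, *Uhrf1*, *Trim28*, *Setdb1*, *Ehmt1*, *Ehmt2* and *Suv39h1*, which encode DNA methyltransferases, their cofactors and the histone-modifying proteins that silence endogenous retroviruses. They were chosen by name, not by their own values, as the gene exon sense features of these symbols. Earlier results of these data were known when they were chosen. All 10 were among the 12415 gene exon sense features listed in a table of strand-specific read counts from whole mouse testis. Total testicular RNA came from adult males at postnatal day 60 on a C57Bl/6J background, with 2 libraries from *Nef-sp*-/- and 2 from *Nef-sp*+/- animals. *Nef-sp* encodes an RNA exonuclease found in testis, and the null allele is a 23 bp out-of-frame deletion made with a Cas9 nickase and a pair of guide RNAs. The *Nef-sp*+/- controls carry a copy of the same deletion, so no library without it was compared. The sources name no cell type restriction of the deletion, and 1 line with this deletion was studied.

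DNA methylation in mammals is copied at replication and placed anew in germ cells by separate enzymes. DNMT1 copies it to the new strand, and UHRF1 brings DNMT1 to half-methylated sites. DNMT3A and DNMT3B place methylation at new sites, with DNMT3L as a cofactor that has no catalytic activity. At retroviral sequences, zinc finger proteins recruit TRIM28 (also KAP1), which brings the H3K9 methyltransferase SETDB1. EHMT2 (G9a) and its partner EHMT1 (GLP) place lower methylation states of H3K9, and SUV39H1 methylates H3K9 in constant heterochromatin. In the male germ line, new DNA methylation is laid down before birth in prospermatogonia, and its loss derepresses retroelements in later germ cells.

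Sequences upstream of annotated starts are shown first for 3 of the members. *Trim28* and *Uhrf1* are the members whose exon counts lay lower in both *Nef-sp*-/- libraries. Among those with enough intron reads for a test, *Dnmt3l* is the member whose intron reads lay lower. Each line holds the 250 bases before a RefSeq start, on the sense strand, and its position in mm9. Capitals mark the motif matches, which were searched on both strands.
*Trim28*, chr7:13609251-13609500, plus strand: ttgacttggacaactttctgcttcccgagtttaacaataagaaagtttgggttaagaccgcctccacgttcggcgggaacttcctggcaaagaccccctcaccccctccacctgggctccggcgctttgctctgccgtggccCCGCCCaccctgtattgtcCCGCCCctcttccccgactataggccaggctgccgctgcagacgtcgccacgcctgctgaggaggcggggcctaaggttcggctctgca
*Uhrf1*, chr17:56443486-56443735, plus strand: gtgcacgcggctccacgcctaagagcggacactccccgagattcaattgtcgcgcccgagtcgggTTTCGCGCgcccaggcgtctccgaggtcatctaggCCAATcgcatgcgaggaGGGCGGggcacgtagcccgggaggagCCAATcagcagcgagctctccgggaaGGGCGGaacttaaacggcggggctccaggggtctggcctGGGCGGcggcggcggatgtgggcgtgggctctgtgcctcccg
*Dnmt3l*, chr10:77512337-77512586, plus strand: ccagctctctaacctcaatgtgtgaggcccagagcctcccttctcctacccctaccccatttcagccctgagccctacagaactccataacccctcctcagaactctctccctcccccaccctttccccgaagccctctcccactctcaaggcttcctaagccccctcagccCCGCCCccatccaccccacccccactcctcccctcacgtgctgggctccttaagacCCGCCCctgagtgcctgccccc
*Dnmt3l*, chr10:77517830-77518079, plus strand: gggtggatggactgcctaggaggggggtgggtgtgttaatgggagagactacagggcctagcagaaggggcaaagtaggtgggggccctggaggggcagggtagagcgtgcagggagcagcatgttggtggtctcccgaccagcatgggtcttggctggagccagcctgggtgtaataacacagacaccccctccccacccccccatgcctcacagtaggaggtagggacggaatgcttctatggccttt
The *Trim28* window ends just before the first base of the annotated gene, and its capitals are GC boxes (GGGCGG on either strand). In the *Uhrf1* window, which lies before a start 992 bases inside the annotated gene, the capitals are an E2F motif, CCAAT boxes and GC boxes. The *Dnmt3l* windows lie before starts 7895 and 13388 bases inside its gene. The first of these holds GC boxes and the second holds no match. None of the 4 windows overlaps an annotated exon. A further window of *Uhrf1* and one of *Dnmt3l* are not shown because 16 and 91 of their bases are exonic.

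The RefSeq table held 19 windows for the 10 members, among 32851 windows in all. A GC box was found in 15 of the 19 member windows (78.9%) and in 32.7% of all windows. An E2F motif, searched as TTTGGCGC, TTTCCCGC, TTTGCCGC or TTTCGCGC, was in 3 of 19 (15.8%) against 1.86%, in single windows of *Dnmt1*, *Suv39h1* and *Uhrf1*. CCAAT was in 6 of 19 (31.6%) against 33.8%. No member window held TATAAA, which was in 12.4% of all windows, or TGACGTCA, which was in 1.55%. The member windows held a median of 17 CpG dinucleotides, against 6 in all windows. Windows of the same gene can overlap and are not independent. Counts per gene do not separate transcripts by their start, so no level was assigned to a window.

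The libraries held 20659865 to 34442517 reads over all annotation categories. The second *Nef-sp*+/- library was the deepest, and the other 3 held at most 21104999. *Nef-sp* itself (2610020H08Rik) had normalised exon sense counts of 1843 and 1693 in *Nef-sp*+/- against 407 and 497 in *Nef-sp*-/- testes, so that the label of every library matched its targeted gene (log2 fold change −1.97, SE 0.0921, adjusted p = 4.1e-06, edgeR quasi-likelihood test). A normalised count here is the read count scaled to the mean effective library size of the 4 libraries. *Nef-sp* was the only one of 10728 tested exon sense features with an adjusted p below 0.05, which is 0.00932%. The labels do not say that the libraries came from separate animals, so the p-values measure the spread between these libraries, which may be technical. Markers of germ cells were abundant in every library, with summed levels of 18590 to 23302 CPM for 8 spermatid markers and 2148 to 2252 CPM for 7 listed spermatocyte markers. CPM, the usual per-million scale, is the count relative to the effective library size.

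The 10 genes covered a wide range of RNA levels, given here as exon sense CPM per kb of annotated exon. *Trim28* was the highest, with a mean of 126 over the 4 libraries. *Ehmt2* followed at 63.9, *Uhrf1* at 24.6, *Setdb1* at 12.7 and *Dnmt1* at 8.36. The other 5 genes were below 1.5 in every library. *Dnmt3l* had a mean of 1.15, *Suv39h1* of 0.684 and *Ehmt1* of 0.381. The *de novo* methyltransferases among the 10 genes were the lowest, *Dnmt3a* at 0.143 and *Dnmt3b* at 0.0805. In 8 of the 9 neighbouring pairs of this order, all 4 libraries of the higher gene lay above all 4 of the lower. All libraries of a gene are divided by the same exon length, so this separation does not test the lengths. Before that division, the normalised counts of *Ehmt1* (42.7 to 55.6) and *Dnmt3a* (32.3 to 52.1) overlapped. So did those of *Dnmt3l* (49.5 to 80.5) and *Suv39h1* (65.1 to 71.6). *Dnmt3a* and *Dnmt3b* overlapped, the lowest *Dnmt3a* library being at 0.104 and the highest *Dnmt3b* library at 0.112. The partners EHMT1 and EHMT2 were thus encoded by RNAs at 0.381 and 63.9. The authors processed the reads with in-house tools, and whether their gene models match the exon lengths used here was not checked. These levels rest on exon lengths of GENCODE vM1 on mm9, and a long annotation lowers the value. The exons of *Dnmt3a* add up to 16642 bases in that annotation and those of *Dnmt3b* to 5106.

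**Figure D1:**
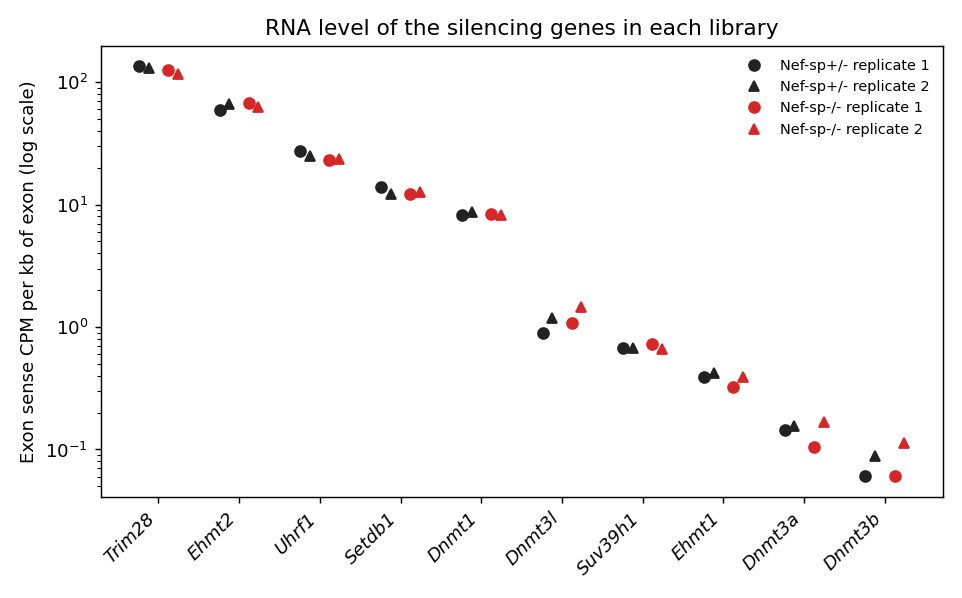
Exon sense CPM per kb of annotated exon (log scale) for each of the 10 genes, ordered by mean, with 1 point per library. Black points are Nef-sp+/- and red points Nef-sp-/- libraries. The genes run from Trim28, at a mean of 126, to Dnmt3b, at 0.0805, and for most genes the points of the genotypes lie among each other.

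None of the 9 members that passed the expression filter had an adjusted p below 0.05 between the genotypes, against 0.00932% of all exon sense features tested. *Dnmt3b* did not pass the filter. At an unadjusted p below 0.05, 1 of the 9 passed in edgeR, against 4.8% of all features, and 0 of 10 in DESeq2. The genotypes did not overlap for 2 of the 9 (*Uhrf1* and *Trim28*), against 34.5% of all features. Both lay lower in *Nef-sp*-/-, the pattern of 18.1% of all features. The median log2 fold change of the 9 was −0.06 (3 above 0 and 6 below), beside a median of 0.00 over all tested features (−0.000224). The values ran from −0.19 in *Ehmt1* to 0.24 in *Dnmt3l*. In RNA of whole testis, fewer cells of a type and less RNA per cell cannot be told apart.

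**Figure D2:**
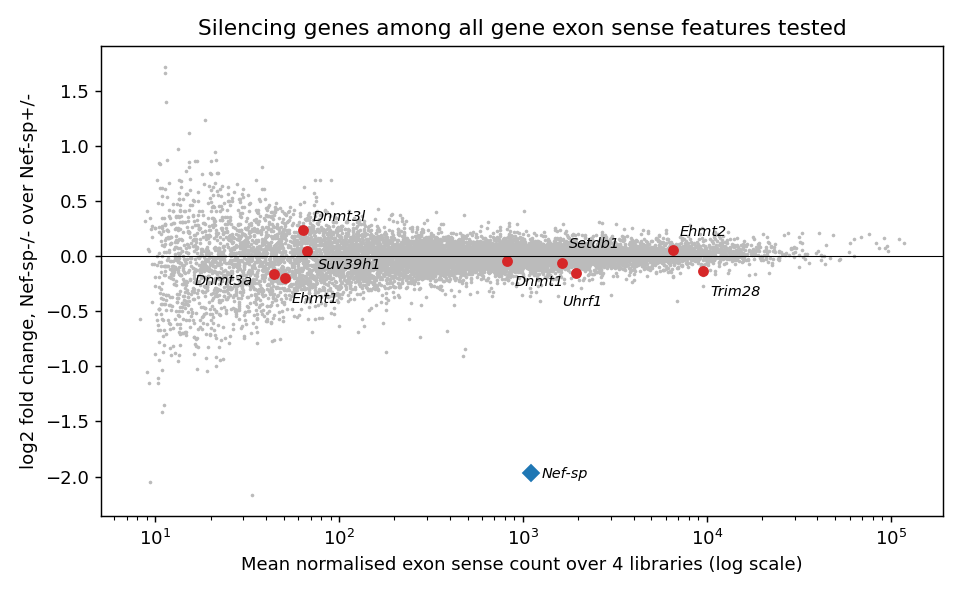
The log2 difference between the genotypes (Nef-sp-/- over Nef-sp+/-) against the mean normalised exon sense count (log scale) of the 10728 features tested, in grey. The 9 tested silencing genes, in red, lie within the grey cloud between −0.19 and 0.24, and Nef-sp, the blue diamond, lies at −1.97.

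*Dnmt1* (chr9:20711650-20757317, minus strand), the gene of the maintenance methyltransferase, had normalised exon counts of 807 and 853 in *Nef-sp*+/- against 818 and 802 in *Nef-sp*-/-. The genotypes overlapped, with a log2 fold change of −0.04 (SE 0.0684, 95% interval −0.19 to 0.11). *Uhrf1* (chr17:56442744-56462909, plus strand), which recruits DNMT1, had 2155 and 1967 in *Nef-sp*+/- against 1837 and 1860 in *Nef-sp*-/-. Both *Nef-sp*-/- values lay below both controls, by −0.15 on the log2 scale (SE 0.0652, 95% interval −0.30 to −0.01). Without the first *Nef-sp*+/- library the value was −0.089. Its unadjusted p of 0.0381 in edgeR became 0.954 after Benjamini-Hochberg adjustment over all tested features. In the edgeR fit of all 4 libraries, these intervals reached down to −0.19 for *Dnmt1* and −0.30 for *Uhrf1* on the log2 scale. DESeq2 gave larger standard errors, 0.114 for *Dnmt1* and 0.0938 for *Uhrf1*, so these limits hold for the edgeR fit only.

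The members that act in *de novo* methylation had few reads. *Dnmt3a* (chr12:3806007-3914443, plus strand) had normalised counts of 44.9 and 48.6 in *Nef-sp*+/- against 32.3 and 52.1 in *Nef-sp*-/-. The *Nef-sp*-/- libraries held both the lowest and the highest value (log2 fold change −0.16, SE 0.244, 95% interval −0.70 to 0.38). *Dnmt3b* (chr2:153475186-153513466, plus strand) had 5 and 12 reads in *Nef-sp*+/- against 5 and 9 in *Nef-sp*-/-, too few for a test. *Dnmt3l* (chr10:77504692-77526367, plus strand), the gene of the cofactor needed for methylation of retroelements in male germ cells, had 49.5 and 66.2 in *Nef-sp*+/- against 60.1 and 80.5 in *Nef-sp*-/-. Its genotypes overlapped, with a log2 fold change of 0.24 (SE 0.212, 95% interval −0.23 to 0.71). This value was 0.084 without the first and 0.50 without the second *Nef-sp*+/- library, and 0.43 without the first and 0.016 without the second *Nef-sp*-/- library. At this depth, the intervals of *Dnmt3a* and *Dnmt3l* include differences in either direction, and the smallest detectable difference was not computed.

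*Trim28* (chr7:13609501-13616384, plus strand), the corepressor gene, had the most reads of the members. Its normalised counts were 10114 and 9806 in *Nef-sp*+/- against 9430 and 8731 in *Nef-sp*-/-. Both *Nef-sp*-/- values lay below both controls, by −0.13 on the log2 scale (SE 0.0624, 95% interval −0.27 to 0.0045). Without the second *Nef-sp*-/- library the value was −0.075. The unadjusted p was 0.0567 and the adjusted p 0.954 in edgeR. *Setdb1* (chr3:95127447-95161124, minus strand), whose product TRIM28 recruits, had 1761 and 1561 in *Nef-sp*+/- against 1557 and 1626 in *Nef-sp*-/-. The first *Nef-sp*+/- library was the high one, and the other 3 lay close together (log2 fold change −0.06, SE 0.0719, 95% interval −0.22 to 0.10).

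*Ehmt2* (chr17:35035414-35050997, plus strand), which encodes G9a, had normalised counts of 6084 and 6720 in *Nef-sp*+/- against 6948 and 6381 in *Nef-sp*-/-. The genotypes overlapped, at a log2 fold change of 0.06 (SE 0.0697, 95% interval −0.10 to 0.21). *Ehmt1* (chr2:24646289-24775129, minus strand), which encodes its partner GLP, had 51.8 and 55.6 in *Nef-sp*+/- against 42.7 and 52.1 in *Nef-sp*-/-. The first *Nef-sp*-/- library was the lowest, and the second lay between the controls (log2 fold change −0.19, SE 0.200, 95% interval −0.63 to 0.25). *Suv39h1* (chrX:7638297-7651886, minus strand), on the X chromosome, had 65.6 and 66.2 in *Nef-sp*+/- against 71.6 and 65.1 in *Nef-sp*-/-. Its 4 values lay close together, and the interval still ran from −0.32 to 0.43 around a log2 fold change of 0.05 (SE 0.171).

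The adjusted p of the 9 tested members lay between 0.954 and 0.990 in edgeR. The width of the intervals followed the read numbers. Members above 800 normalised counts had standard errors of 0.0624 to 0.0719 on the log2 scale, and those below 81 had 0.171 to 0.244. The median standard error over all tested features was 0.0893. No exon of a member overlaps an exon of another gene on the same strand in the annotation. Antisense exon reads were listed for *Ehmt2*, *Setdb1* and *Trim28* alone, with 5, 7 and 5 reads over the 4 libraries.

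Intron sense reads, which come largely from RNA not yet spliced, were listed for 8 of the 10 members, all but *Dnmt3a* and *Ehmt1*, and 4 had enough reads for a test. None of the 4 had an adjusted p below 0.05, against 0.0294% of the 3403 intron features tested. *Dnmt3l* had 30 and 29 intron sense reads in *Nef-sp*+/- against 11 and 9 in *Nef-sp*-/-. Scaled for depth, these were 33.6 and 21.3 against 13.1 and 9.90, so both *Nef-sp*-/- values lay below both controls. The log2 fold change was −1.20 (SE 0.380, 95% interval −1.99 to −0.41), with an unadjusted p of 0.00463 and an adjusted p of 0.9996 in edgeR. An unadjusted p below 0.05 was found in 1 of the 4 members and in 2.35% of all intron features, and a lack of overlap in 1 of the 4 and in 28%. The exon counts of *Dnmt3l* did not lie lower in *Nef-sp*-/-. For each 100 exon sense reads, *Dnmt3l* had 43.1 intron sense reads in *Nef-sp*+/- and 16.7 in *Nef-sp*-/-, with both libraries of a genotype pooled. Its exon sense reads were 43 and 94 in *Nef-sp*+/- against 52 and 68 in *Nef-sp*-/-, so this ratio differed widely between the *Nef-sp*+/- libraries. Whether exon and intron reads differed from each other in their response was not tested.

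The other members tested on introns overlapped between the genotypes. *Dnmt1* had a log2 fold change of 0.32 (SE 0.274, 95% interval −0.25 to 0.89), with intron counts of 25.8 and 36.8 in *Nef-sp*+/- against 47.6 and 33.0 in *Nef-sp*-/-. *Setdb1* had intron counts of 11.2 and 17.7 against 10.7 and 20.9, a log2 fold change of 0.09 (95% interval −0.77 to 0.95). *Trim28* had 42.6 and 53.0 against 40.5 and 53.9, a log2 fold change of −0.03 (95% interval −0.54 to 0.47). The most abundant members had few intron reads. With both libraries of a genotype pooled, these were at most 0.534 per 100 exon reads for *Trim28* and 0.0607 for *Ehmt2*. The intron reads of *Dnmt3b*, *Ehmt2*, *Suv39h1* and *Uhrf1* did not pass the filter, the highest scaled count among them being 5.95 in *Uhrf1*.

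**Figure D3:**
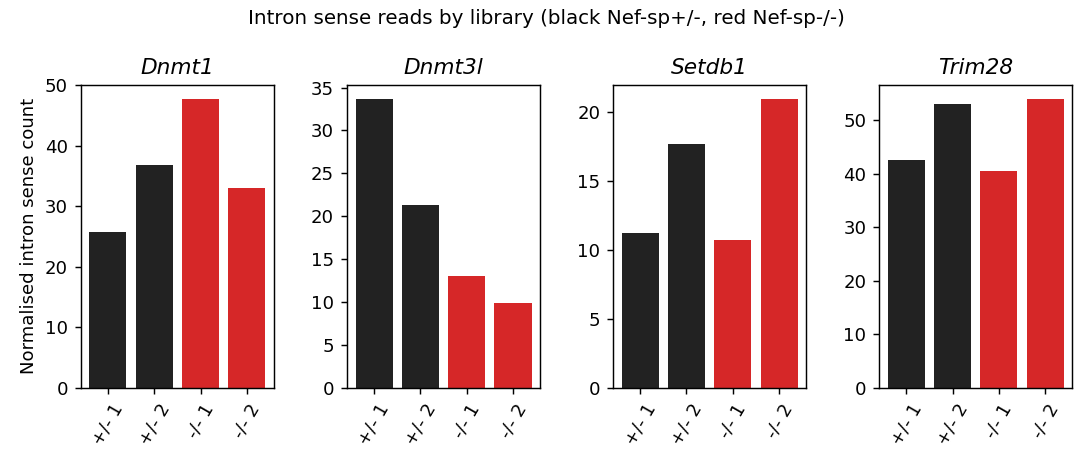
Normalised intron sense counts of the 4 members tested on introns, as 1 bar per library with each gene on its own axis starting at 0 (black Nef-sp+/-, red Nef-sp-/-). For Dnmt3l, both red bars (13.1 and 9.90) are below both black bars (33.6 and 21.3), and the bars of the other genes overlap between the genotypes.

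**Figure D4:**
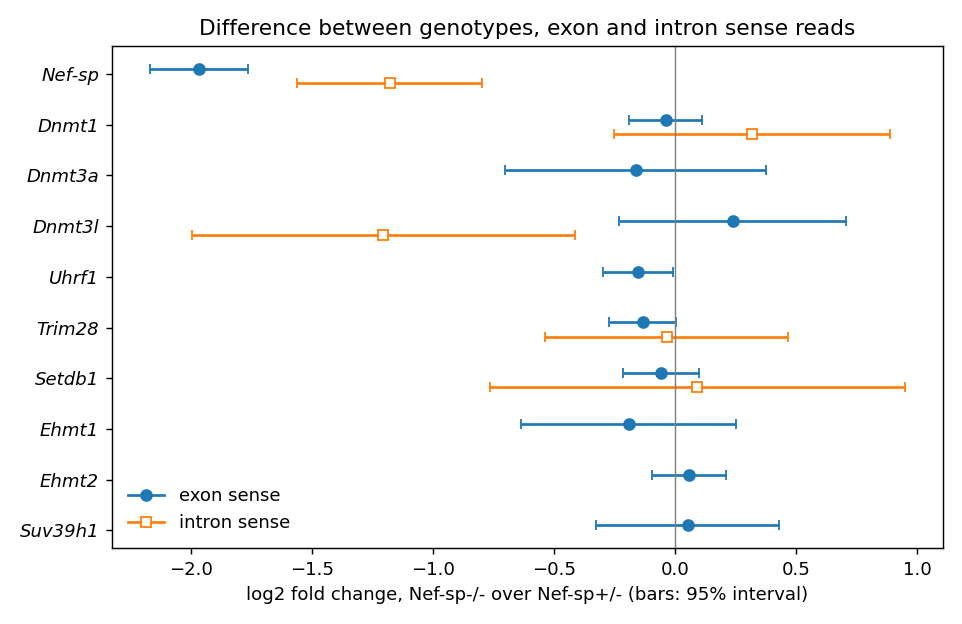
The log2 difference between the genotypes (Nef-sp-/- over Nef-sp+/-) with its 95% interval, for exon sense (filled circles) and intron sense reads (open squares) of the tested members and of Nef-sp. Exon intervals of the members include 0, apart from that of Uhrf1, which ends at −0.01, and the intron value of Dnmt3l is −1.20.

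To describe the rest of these pathways, 52 further genes in 5 lists were examined. Of these, 45 were listed and 41 passed the filter, and none had an adjusted p below 0.05, against 0.00932% of all exon sense features. At an unadjusted p below 0.05, 2 of the 41 passed, against 4.8% of all features. The genotypes did not overlap for 14 of 41, against 34.5%, of which 7 lay higher and 7 lower in *Nef-sp*-/-. The median log2 fold change was 0.01 (0.00727), with 22 genes above 0 and 19 below.

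Among the cofactors and readers of DNA methylation, 8 of 12 genes were tested. In this list, *Dnmt3c*, a further DNA methyltransferase gene, and *Dppa3* were not found among the listed exon sense features by symbol or synonym. *Mbd3*, a subunit of the NuRD repressor complex, had normalised counts of 952 and 1070 in *Nef-sp*+/- against 926 and 789 in *Nef-sp*-/-, with a log2 fold change of −0.24 (SE 0.0887, unadjusted p = 0.0198, adjusted p = 0.954 in edgeR). *Mbd2*, a reader of methylated DNA, was at 788 and 994 against 1032 and 983, and its genotypes overlapped (0.17, SE 0.0974). Without the second *Nef-sp*+/- library, *Mbd2* was at 0.35 with an adjusted p of 0.0261 in edgeR, the only call in the further lists when a library was left out. *Uhrf2*, the paralog of *Uhrf1*, was at 243 and 247 against 268 and 265 (0.12, SE 0.0954). *Usp7*, a deubiquitinase that binds DNMT1 and UHRF1, had 10704 and 10807 against 10344 and 10578 (−0.04, SE 0.0574). *Uhrf2* thus lay higher and *Usp7* lower in both *Nef-sp*-/- libraries, neither past the threshold.

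Of 5 genes of DNA demethylation, only the glycosylase gene *Mbd4* was tested. It had 159 and 210 in *Nef-sp*+/- against 188 and 208 in *Nef-sp*-/- (log2 fold change 0.07, SE 0.141), which overlapped. *Tet2*, which oxidises methylcytosine, and *Tdg* had at most 3 reads in a library. *Tet1* and *Tet3* were not found among the listed exon sense features by symbol or synonym. Every feature in the table had at least 5 reads over the 4 libraries.

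All 12 listed partners and readers of H3K9 methylation were tested. *Atf7ip*, a partner of SETDB1, had 908 and 851 in *Nef-sp*+/- against 763 and 811 in *Nef-sp*-/-, with both *Nef-sp*-/- values lower (−0.16, SE 0.0713, unadjusted p = 0.0508, adjusted p = 0.954 in edgeR). *Wiz*, a partner of EHMT1 and EHMT2, was at 63.3 and 67.6 against 54.3 and 52.1 (−0.31, SE 0.180). *Zfp809*, a zinc finger protein that recruits TRIM28 to retroviral DNA, was at 96.7 and 83.8 against 109 and 105 (0.26, SE 0.151). *Cdyl*, a chromodomain protein and the most abundant of this list by counts, was at 9227 and 10604 against 11017 and 10111 (0.09, SE 0.0763).

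In the list of HUSH, MORC and chromatin assembly genes, 12 were tested. *Resf1*, listed under its older symbol 2810474O19Rik and known as a regulator of retroelement silencing, had 331 and 326 in *Nef-sp*+/- against 387 and 419 in *Nef-sp*-/-. Both *Nef-sp*-/- values lay above both controls (0.29, SE 0.0868), with the smallest unadjusted p of the 41 genes (0.00622) and an adjusted p of 0.954 in edgeR. *Hdac1*, a histone deacetylase gene, was at 2279 and 2357 against 2200 and 2209 (−0.07, SE 0.0587), and *Chaf1a*, a subunit of chromatin assembly factor 1, at 4589 and 4981 against 5409 and 4611 (0.07, SE 0.0792). Of the H3K9 demethylases, 8 were tested. *Phf8* was at 392 and 380 against 416 and 453 (0.17, SE 0.0845), and *Kdm4c* at 124 and 115 against 124 and 141 (0.15, SE 0.137). *Kdm4b* had a log2 fold change of −0.09 (SE 0.109), and *Kdm3a*, known for its role in spermatid maturation, was at 7855 and 7311 against 7500 and 7750 (0.01, SE 0.0617).

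Retroelements, some of which these proteins are known to silence, were counted as repeat sense reads. Whether the RLTR10 elements are among their targets was not tested. Of 578 tested repeat features, 4 had an adjusted p below 0.05 (0.692%). Of the 40 features in 7 retroelement groups, 3 passed, all in the RLTR10 group, namely RLTR10B2 at 0.78, RLTR10B at 0.71 and RLTR10-int at 0.46 on the log2 scale. The paper had already reported a modest increase of these same elements from the same libraries. The group was chosen with earlier results of these data known, so its calls are not an independent finding. RLTR10C, the most abundant of the group by counts, was at 0.25 (adjusted p = 0.744 in edgeR). All 3 calls were lost without the first *Nef-sp*+/- library (adjusted p 0.126, 0.191 and 0.191 in edgeR, at 0.78, 0.69 and 0.51) and with the library size over all categories (0.339, 0.339 and 0.764, at 0.80, 0.73 and 0.48). RLTR10-int also lost its call without the second *Nef-sp*+/- library (0.339, at 0.42), with no filter (0.0577, at 0.47) and with the replicate number as a block (0.417, at 0.46). Outside that group, 0 of 32 passed in edgeR, 4 had an unadjusted p below 0.05, against 5.02% of all repeat features, and for 8 the genotypes did not overlap, against 29.6%. Of the 4, 3 were features of the intracisternal A particle (IAP), higher in both *Nef-sp*-/- libraries at 0.28, 0.35 and 0.45. Of the 16 IAP features, 12 were above 0 and 6 did not overlap, with values from −0.56 to 0.54. The median log2 fold change of the 32 was 0.07, beside 0.01 (0.00544) over all tested repeats, with 27 of 32 above 0, against 51.7% of all tested repeats. Elements of a group are related, so these features are not independent.

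MMERVK10C-int, the internal part of an ERVK retrovirus, had normalised counts of 9101 and 9305 in *Nef-sp*+/- against 10839 and 11705 in *Nef-sp*-/-. Both *Nef-sp*-/- values lay above both controls (log2 fold change 0.29, SE 0.0811), with an unadjusted p of 0.00322 and an adjusted p of 0.290 in edgeR. Without the first *Nef-sp*-/- library, its adjusted p was 0.0169 in edgeR, at 0.34 on the log2 scale. IAPEz-int, the internal part of the intracisternal A particle, a retrovirus kept silent by TRIM28, SETDB1 and DNA methylation, had 14432 and 12553 in *Nef-sp*+/- against 13271 and 15823 in *Nef-sp*-/-. These overlapped (0.11, SE 0.101). The young LINE element L1Md_T had 29021 and 25409 against 25848 and 31251, and MERVL-int had 4495 and 3786 against 3973 and 5047. In all 3 of the last elements, the genotypes overlapped (L1Md_T 0.07, SE 0.104, MERVL-int 0.12, SE 0.113). The highest value was that of the second *Nef-sp*-/- library, followed by the first *Nef-sp*+/- library. Without the second *Nef-sp*-/- library, IAPEz-int was at −0.029, L1Md_T at −0.079 and MERVL-int at −0.063. Without the second *Nef-sp*+/- library, they were at 0.0091, −0.026 and 0.0026. ETnERV2-int was at 3435 and 3579 against 3732 and 3689 (0.08, SE 0.0777), higher in both *Nef-sp*-/- libraries. ETnERV3-int was at 0.07 (SE 0.0841), IAPEY3-int at 0.03 (SE 0.0769), L1Md_F2 at 0.09 (SE 0.0991) and MT2_Mm, the LTR of MERVL, at 0.09 (SE 0.118). MMVL30-int was at 0.03 (SE 0.105) and MuLV-int at −0.04 (SE 0.0943). These counts add up the copies of an element across the genome, and no single copy was followed.

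**Figure D5:**
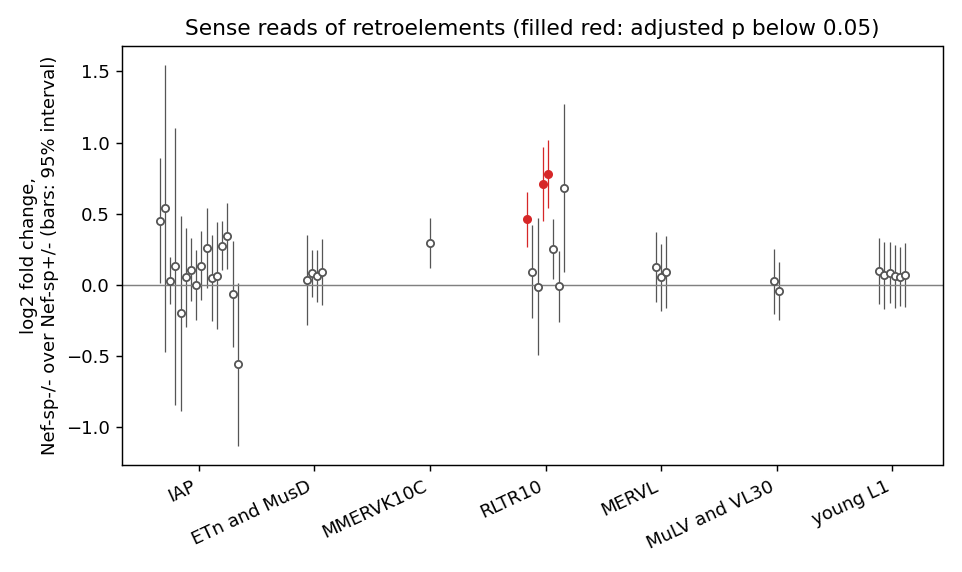
The log2 difference between the genotypes (Nef-sp-/- over Nef-sp+/-) with its 95% interval for 40 repeat sense features in 7 retroelement groups, with 1 point per feature. Filled red points have an adjusted p below 0.05. These are 3 RLTR10 features between 0.46 and 0.78, and 27 of the 32 features outside that group lie above 0. Features of a group are related elements and are not independent.

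Some marker lists of other testicular cells did not overlap between the genotypes. The summed level of 8 Leydig cell markers was 1062 and 1075 CPM in *Nef-sp*+/- against 1019 and 890 in *Nef-sp*-/-, lower without overlap. The abundant *Cyp17a1* (log2 fold change −0.27) and *Cyp11a1* (−0.35) lay lower, while the other 6 markers overlapped between the genotypes and were above 0, so that the median of the 8 was 0.09. The sum of 5 listed peritubular myoid markers was also lower (74.5 to 76.6 against 66.3 to 73.1 CPM), and of these only *Acta2* (−0.16) did not overlap. The sum of 3 listed blood markers was lower too (24.7 to 27.9 against 22.7 to 23.9 CPM), with *Hba-a2* lower (−0.57) and *Alas2* higher (0.23) in both *Nef-sp*-/- libraries. No marker of any list had an adjusted p below 0.05 in edgeR, and *Cyp17a1*, *Cyp11a1* and *Hba-a2* had an unadjusted p below 0.05. So did *Tnp1* of the spermatid list (0.18, higher) and *C1qa* of the macrophage list (−0.40, lower), both without overlap. Over all exon sense features tested, 4.8% had an unadjusted p below 0.05 and 34.5% did not overlap. The Leydig, myoid and blood sums lay lower together with *Uhrf1*, *Trim28* and the intron reads of *Dnmt3l*, and their part in those values was not tested. The 2 listed epididymis markers were higher in *Nef-sp*-/- but near 0 (1.54 to 2.46 against 2.48 to 3.29). The summed markers of spermatogonia (61.8 to 70.6 over all libraries), spermatocytes, spermatids, Sertoli cells (1023 to 1064) and macrophages (50.1 to 58.7) overlapped between the genotypes. The first *Nef-sp*+/- library had the lowest spermatid level, at 18590 beside 22663 to 23302 in the other 3.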

How the data were processed

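Strand-specific libraries of ribosome-depleted total testicular RNA (50 cycles) were compared between 2 *Nef-sp*-/- and 2 *Nef-sp*+/- samples, grouped by their labels. The authors mapped reads to mm9 and deposited raw counts of reads per feature, annotation category and strand. Versions of the mapping tools are not given in the sources used here. The authors' own DESeq2 columns (mean signal, fold change, p-values) were not used.

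Here, the sense reads of gene exons, gene introns and repeats (3 categories) were fitted separately with edgeR 4.0.16 in R 4.3.3, without covariates, by TMM normalization, an expression filter (minimum count 10) and the quasi-likelihood test. Benjamini-Hochberg adjustment was over all features of the category, with a threshold of 0.05. Intervals are at 95% and use the moderated degrees of freedom. Totals were 20659865 to 34442517 reads. The fit was first tested on simulated data. Levels per kb used the merged exons of GENCODE vM1 (mm9), and windows before starts came from the RefSeq promoter table (GRCm38.p6), matched by symbol and placed in mm9 by exact sequence match, 1 match each.

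The members and lists were chosen with earlier results of these data known. Named are all members, *Nef-sp*, in each further list the genes past the threshold, or failing that the 3 of smallest p and the 1 of highest mean count, and in each retroelement group the 2 highest and those past the threshold. In the further lists, 8 of the listed genes were matched by an older symbol, as was 1 macrophage marker. Alternatives were DESeq2 1.42.0, its size factors, the library size over all categories, other filters, a replicate block and each library left out. The exact permutation test was not used, since with 2 libraries against 2 it cannot go below 0.333. No amino acid sequence was used here. Figures were drawn with matplotlib 3.10.9.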

Additional observations from a re-analysis of the deposited data

How the results depend on the processing

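No member passed the threshold under any alternative, the smallest adjusted p being 0.194, and *Nef-sp* stayed between −2.11 and −1.83 on the log2 scale. Direction changed in 11 of 128 alternatives for the members and in 27 of 438 for all named features. Same-numbered libraries did not deviate together (correlations −0.0823, −0.139 and −0.213 for exons, introns and repeats), and the numbers were not taken to pair them. With the replicate number as a block (replicate block), *Nef-sp* was at −1.97, and 1 exon and 3 repeat features passed, RLTR10-int being lost. A block with crossed numbers, chosen after seeing the data, gave 2 intron and 14 repeat calls. DESeq2 gave 2 exon and 0 intron calls, the library size over all categories 0 intron and 0 repeat calls and a member median of −0.083, and no filter 0 intron and 2 repeat calls. With 1 library left out, the lone library of a genotype was assumed to vary like the pair. Exon calls then ran from 1 to 252 (41 without the first and 252 without the second *Nef-sp*+/- library), repeat calls from 0 to 10 (0 without the first *Nef-sp*+/-, 10 and 7 without the first and second *Nef-sp*-/- library), calls in the further lists from 0 to 1 and the member median from −0.092 to −0.027. Members that kept their sign also moved, as *Ehmt1* from −0.34 to −0.055, *Uhrf1* from −0.22 to −0.089, *Trim28* from −0.19 to −0.075, *Dnmt3l* from 0.016 to 0.50 and, on introns, *Dnmt1* from 0.027 to 0.62 and *Dnmt3l* from −1.55 to −0.90. The cause of these moves was not tested.

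Values near 0 changed sign when a library was left out. The log2 fold changes then ran from −0.075 to 0.0060 for *Dnmt1*, from −0.54 to 0.14 for *Dnmt3a*, from −0.15 to 0.028 for *Setdb1*, from −0.011 to 0.13 for *Ehmt2* and from −0.019 to 0.12 for *Suv39h1*. On introns, they ran from −0.26 to 0.14 for *Trim28* (0.0036 with the library size over all categories) and from −0.48 to 0.49 for *Setdb1*. In the further lists, they ran from −0.082 to 0.32 for *Mbd4*, from −0.0046 to 0.20 for *Cdyl*, from −0.054 to 0.18 for *Chaf1a* and from −0.043 to 0.061 for *Kdm3a* (−0.016 with the library size over all categories). Among retroelements, they ran from −0.029 to 0.23 for IAPEz-int, from −0.079 to 0.20 for L1Md_T, from −0.051 to 0.20 for L1Md_F2, from −0.063 to 0.29 for MERVL-int, from −0.12 to 0.27 for MT2_Mm, from −0.12 to 0.15 for MMVL30-int and from −0.13 to 0.046 for MuLV-int. Read depth limits *Dnmt3a*, *Dnmt3b*, *Dnmt3l*, *Ehmt1*, *Suv39h1* and all intron values.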
